A study of Mus musculus with 5 samples.

Results

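The genes described here are the mouse ephrin, semaphorin and plexin guidance genes: 53 of the 21887 protein-coding genes of the mm10 RefSeq annotation. They were chosen by a rule on gene symbols that uses no measured value, though the rule itself was proposed with earlier results of these data known. The rule takes the Eph receptors (Epha and Ephb), the ephrins (Efna and Efnb), the semaphorins (Sema3 to Sema7), the plexins (Plxna to Plxnd) and the neuropilins Nrp1 and Nrp2. For each gene the data give the TLX peaks that overlap its body or the 10000 bp beyond either end. They also give the peaks of H3K27ac, acetylation of lysine 27 of histone H3, a mark of active promoters and enhancers, around it.

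Chromatin immunoprecipitation with sequencing was applied to cultured mouse neural stem cells (NSC) and cultured mouse brain tumour stem cells (BTSC), with 1 library per group. TLX, the orphan nuclear receptor encoded by Nr2e1, was precipitated with an antibody against TY1 from NSC and from BTSC that had been transduced with TLX-3xTY1, so the TLX measured was a tagged copy supplied by a retrovirus and carried by cells selected for it. H3K27ac was profiled in NSC and in BTSC that were not transduced, so TLX and H3K27ac peaks of a culture come from different cells. The culture text in the labels is the same for all samples and describes primary NSC alone. It gives no genotype, tumour model, passage, sex or age for either culture. A control with the empty vector MSCV-neo and no antibody is also listed, with no stated cell type, and was not used here. No TY1 precipitation from cells without the tag was analysed here, so peaks of TLX and peaks of the antibody alone cannot be told apart. A group has a single library and so no replicate check: counts and widths below describe 4 libraries, and no difference between the cultures was tested.

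Ephrins are cell-surface ligands, held by a lipid anchor in the A class and by a transmembrane segment in the B class, and they signal to Eph receptor tyrosine kinases on touching cells, often in both directions. Semaphorins are secreted (class 3) or membrane-bound (classes 4 to 7 in vertebrates) and act through plexins, whose cytoplasmic part turns off small GTPases of the Ras and Rap type; most class 3 members need a neuropilin as the binding subunit. In the nervous system these ligands repel or attract growing axons and migrating cells and set boundaries between tissue compartments, and several of them act in neural progenitors and in brain tumours.

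The NSC list held 7458 TLX peaks and the BTSC list 1436. The H3K27ac lists held 31266 peaks over 68.5 Mb in NSC and 31597 peaks over 74.1 Mb in BTSC. Sequencing depth is unknown, so a peak missing from a list was not called at that library's depth, which does not show that protein or mark was absent. Chromosome 1 had 1.66 times and chromosome 6 had 0.789 times as much H3K27ac-covered sequence in BTSC as in NSC, against 1.08 times for all chromosomes. Chromosome 1 holds Epha4, Nrp2, Plxna2 and Sema4c, and chromosome 6 holds Epha1, Ephb6, Plxna1, Plxna4, Plxnd1 and Sema4f; the part of these chromosome-wide differences in the results was not tested. Of 8 neural stem cell markers, 6 had H3K27ac at a gene end in each culture, against 52.2% of all genes in NSC and 51.7% in BTSC. The exceptions were Pax6 and Msi1. Within 25000 bp of its ends Pax6 had H3K27ac over 6125 bp in NSC and 8312 bp in BTSC, and Msi1 over 12528 and 11032 bp. Of 6 neuronal markers, 3 had it in NSC and 1 in BTSC. None of 5 microglial, 4 endothelial and 5 fibroblast and pericyte markers had it in either culture. Some of these had H3K27ac within 25000 bp of an end, such as Pecam1 with 10072 bp in NSC and 5568 bp in BTSC. Others, such as Csf1r, had none.

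The sequences of 5 start-site regions are shown because they carry the contrasts described below. Each is the 250 bases before a RefSeq start of the gene in GRCm38.p6 (mm10), 5′ to 3′ along the gene's strand. Capitals mark the GC box, GGGCGG, or its reverse complement CCGCCC, which is the binding motif of Sp-family factors. Nrp2 was the member whose upstream window lay under a TLX peak of both cultures (chr1:62703067-62703316, plus strand). The window of Sema4c lay under a TLX peak of NSC, inside H3K27ac of both cultures (chr1:36557558-36557807, minus strand). That of Sema3c lay under TLX and H3K27ac peaks of NSC and under no peak of BTSC (chr5:17574566-17574815, plus strand). That of Epha3 lay under a TLX peak of NSC and under no H3K27ac peak (chr16:63864176-63864425, minus strand). That of Efna5 lay under an H3K27ac peak of NSC and under no other peak (chr17:62881318-62881567, minus strand).
Nrp2: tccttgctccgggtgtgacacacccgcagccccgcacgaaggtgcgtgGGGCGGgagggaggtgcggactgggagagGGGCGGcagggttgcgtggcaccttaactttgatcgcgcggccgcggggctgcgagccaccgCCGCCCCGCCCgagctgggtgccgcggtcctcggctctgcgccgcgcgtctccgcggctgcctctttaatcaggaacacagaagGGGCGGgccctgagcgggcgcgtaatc
Sema4c: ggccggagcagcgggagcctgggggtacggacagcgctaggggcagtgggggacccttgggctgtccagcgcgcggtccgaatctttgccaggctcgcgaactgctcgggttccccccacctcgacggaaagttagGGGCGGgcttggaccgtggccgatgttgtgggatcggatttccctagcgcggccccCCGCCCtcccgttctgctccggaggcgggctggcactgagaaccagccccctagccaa
Sema3c: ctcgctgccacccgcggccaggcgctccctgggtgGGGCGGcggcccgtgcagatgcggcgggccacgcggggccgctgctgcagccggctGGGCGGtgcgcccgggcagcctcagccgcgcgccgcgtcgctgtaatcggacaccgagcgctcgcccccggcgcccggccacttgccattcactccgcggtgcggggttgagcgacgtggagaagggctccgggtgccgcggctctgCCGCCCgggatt
Epha3: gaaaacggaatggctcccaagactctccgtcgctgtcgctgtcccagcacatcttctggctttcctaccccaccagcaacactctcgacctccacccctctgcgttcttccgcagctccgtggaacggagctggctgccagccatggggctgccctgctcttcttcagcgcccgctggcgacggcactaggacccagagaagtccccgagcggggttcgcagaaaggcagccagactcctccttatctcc
Efna5: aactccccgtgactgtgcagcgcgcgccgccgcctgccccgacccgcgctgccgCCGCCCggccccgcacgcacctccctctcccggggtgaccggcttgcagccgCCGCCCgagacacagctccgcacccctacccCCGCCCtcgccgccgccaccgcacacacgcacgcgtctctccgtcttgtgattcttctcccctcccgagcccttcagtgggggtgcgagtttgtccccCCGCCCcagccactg

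The window of Nrp2 held 5 GC boxes and that of Efna5 held 4, while those of Sema3c, Sema4c and Epha3 held 3, 2 and 0. RefSeq promoter windows, 250 bases before to 50 after a start, were found for 47 of the 53 genes and numbered 61. A GC box lay in 46 of these 61 windows (75.4%) and in 46.2% of the 21263 windows of all protein-coding genes. The guidance windows were also richer in G and C, with a median of 64.0% against 56.3%, and in CpG, with a median of 20 against 13 per window; the part of this composition in the GC box count was not tested. The core motif of TLX, AAGTCA or its reverse complement TGACTT, lay in 3 of the 61 windows (4.92%) against 13.2% of all windows. Those 3 windows belong to Sema4a and Sema4d. The motif lay in 0 of the 9 guidance windows that were under a TLX peak of NSC and in 12.8% of all 2242 such windows. With only 9 windows these 2 shares cannot be told apart. Of the same 9 windows 6 held a GC box (66.7%), a share near the 66.9% of all windows under TLX. The other motifs searched on both strands were AGGTCA (nuclear receptor core, 13.1% of guidance windows against 14.7% of all windows), ACAAT (SOX core, 18% against 27.7%) and CCAAT (32.8% against 38.2%). TGANTCA (AP-1) gave 4.92% against 6.99%, CAGCTG (E-box) 14.8% against 15.6% and TTGGC (NFI) 39.3% against 47.9%. These are matches of letters, some of them overlapping, and do not show binding.

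TLX peaks lay at 25 of the 53 guidance genes in NSC (47.2%, exact Clopper-Pearson 95% interval 33.3 to 61.4%), where 24.8% of all protein-coding genes had one. In BTSC they lay at 4 (7.55%, interval 2.09 to 18.2%), against 5.12% of all genes. All intervals given cover counting error only. The same 4 genes, Nrp2, Plxna2, Sema3a and Sema4c, had TLX in both lists (4.59% of all genes did), 21 had it in the NSC list alone (20.2% of all genes) and 0 in the BTSC list alone (0.525% of all genes). The NSC list was the longer one. Reduced to as many peaks as the BTSC list, it left TLX at 4 guidance genes (Efna5, Plxna2, Plxna4 and Sema6d) and 4.86% of all genes. Only Plxna2 then had TLX in both lists, as did 2.44% of all genes. Of the 4 genes bound in BTSC, Nrp2, Plxna2 and Sema4c lie on chromosome 1. It held 297 of the 1436 TLX peaks of BTSC and 461 of the 7458 of NSC, so a larger share of the BTSC list.

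Length has to be set beside these counts, since a long gene offers more sequence in which a peak can fall. The guidance genes had a median length of 36272 bp, against 17169 bp for all protein-coding genes. Among genes over 100 kb, 18 of 22 guidance genes had TLX in NSC (81.8%, interval 59.7 to 94.8%) against 51.4% of all such genes. Among shorter genes the share was near the background, with 3 of 17 under 20 kb (17.6% against 16.4%) and 4 of 14 from 20 to 100 kb (28.6% against 29.4%). In BTSC, 3 of the 22 long guidance genes had TLX (13.6%), near the 13.8% of all long genes. The 4 long guidance genes without TLX were Epha6, Sema3d, Sema3e and Sema5a. Epha6, an EphA receptor gene of 969479 bp and the longest member, and Sema5a, a semaphorin gene of 451529 bp with thrombospondin repeats, thus had no TLX peak in either list.

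**Figure D1:**
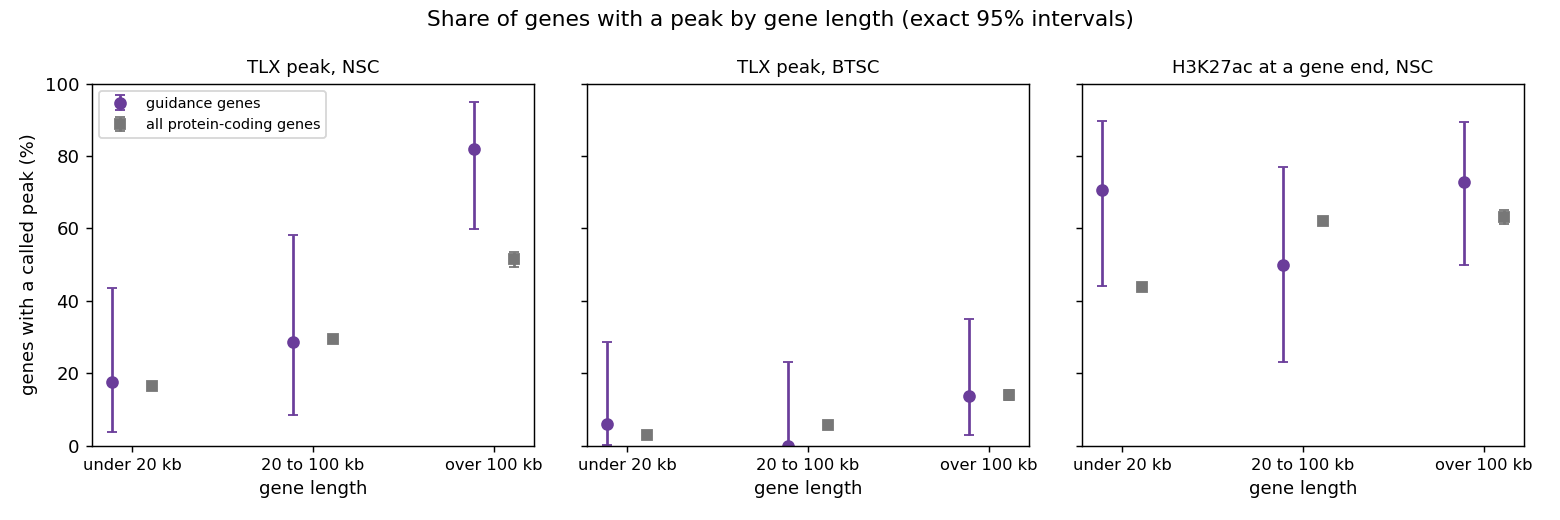
Share of genes with a TLX peak in NSC, a TLX peak in BTSC and H3K27ac at a gene end in NSC (vertical axis, percent) in 3 classes of gene length (horizontal axis), for the guidance genes (circles) and all protein-coding genes (squares), with exact 95% intervals for counting error. The guidance genes stand above all genes for TLX in NSC in the class over 100 kb (81.8% against 51.4%), while in BTSC the shares of that class are 13.6% and 13.8%.

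By role, TLX in NSC lay at 6 of 9 plexin genes, both neuropilin genes, 5 of 9 EphA and 3 of 5 EphB receptor genes, so 16 of the 25 receptor genes had it, against 24.8% of all genes. Of the receptor genes over 100 kb 11 of 12 had it, where 51.4% of all genes of that length did. Of the shorter receptor genes 5 of 13 had it. Of all genes, 16.4% of those under 20 kb and 29.4% of those from 20 to 100 kb did. Among ligands it lay at 1 of 8 ephrin genes (Efna5) and at 8 of 20 semaphorin genes: 2 of 7 in class 3, 3 of 6 in class 4, 1 of 2 in class 5, 2 of 4 in class 6 and 0 of 1 in class 7. Among these 28 ligand genes it lay at 7 of 10 over 100 kb and at 2 of 18 shorter ones, beside the same shares of all genes. Of the 8 ephrin genes 7 are of the shorter kind. The 47 TLX peaks of NSC at these genes had a median fold enrichment of 4.78, the value also found over all TLX peaks of NSC. Fold enrichment and q here and below are the authors' own values per peak. Of the 47 peaks, 42 had their summit in a gene body, and of the 37 at genes with a listed RefSeq start, 12 (32.4%) had it within 1000 bp of one. Peaks were counted only in a body or the 10000 bp beyond its ends, which favours summits in the body at long genes. Neither share was computed over all TLX peaks, so neither sets these genes apart. In 42 of 47 (89.4%, interval 76.9 to 96.5%) the peak lay inside H3K27ac of NSC, against 91.6% of all TLX peaks of NSC. A TLX peak of BTSC overlapped 5 of the 47 (10.6%, interval 3.55 to 23.1%), against 15.8% of all.

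**Figure D2:**
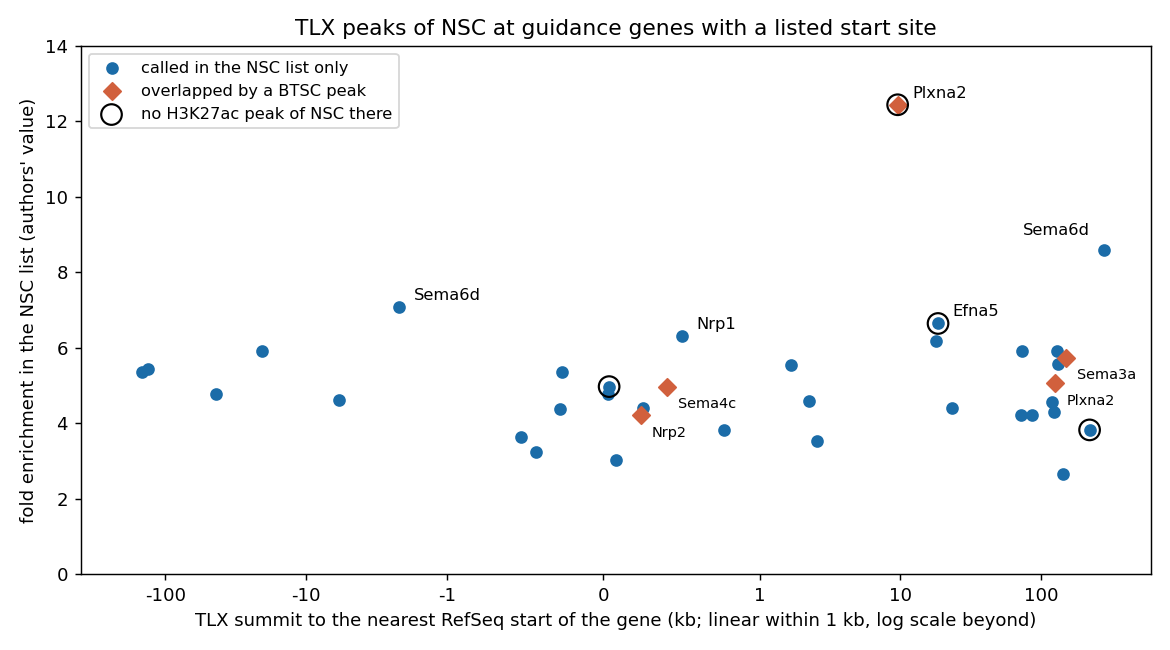
Fold enrichment of the 37 TLX peaks of NSC at guidance genes with a listed start (vertical axis, authors' value) by distance of the summit from the nearest RefSeq start of the gene (horizontal axis in kb, negative upstream, linear within 1 kb and logarithmic beyond). The peak in Plxna2 stands at 12.4, above the next one at 8.60 in Sema6d; diamonds are the 5 peaks overlapped by a BTSC peak and rings mark peaks outside H3K27ac of NSC.

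Plxna2, a receptor for class 6 semaphorins and, with neuropilins, for class 3, held the TLX peak of highest −log10 q at any guidance gene. The peak at chr1:194629024-194629856 lies in the gene body with its summit 9580 bp past the start. It had a fold of 12.4 and a −log10 q of 79.5 in NSC, rank 22 of 7458 peaks. In BTSC the peak there had a fold of 9.51 and a −log10 q of 45.0, rank 19 of 1436 peaks, so it was near the top of either list. No H3K27ac peak of NSC covered it, while in BTSC an H3K27ac peak of 1347 bp did, with a fold of 2.67. The other 4 TLX peaks of NSC at Plxna2 had folds of 4.30 to 5.06. One had its summit at −5847 bp, upstream of the start, and 3 lay 120112 to 126737 bp past it, inside an H3K27ac domain that spanned 11420 bp in NSC and 17745 bp in BTSC, and the farthest of these 3 was also called in BTSC with a fold of 3.75.

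Sema6d, a membrane-bound ligand of the A-type plexins, also had 5 TLX peaks, all in the NSC list and all inside H3K27ac of NSC. The highest had a fold of 8.60 and a −log10 q of 27.5, 280282 bp past the nearest start. Plxna4, Sema3a and Sema6a had 4 each. In Plxna4, a plexin used by Sema3a and Sema6a, the folds were 4.63 to 6.29. The highest of them (chr6:32261159-32261754, −log10 q of 16.7) lay outside H3K27ac of both cultures, and another had its summit 71 bp inside a gene end. In Sema6a the folds were 3.44 to 4.40. In Sema3a, the secreted ligand known for growth cone collapse, the folds were 5.45 to 5.93, and the peak 151064 bp past the start recurred in BTSC (5.74 in NSC and 5.72 in BTSC). Its TLX peaks lay under H3K27ac of NSC, and 7 H3K27ac peaks were called in the gene in NSC and 6 in BTSC. The ends of the annotated body had no H3K27ac within 25000 bp, but the listed RefSeq start, position 13396784 of chromosome 5, lies inside that body. H3K27ac lay shortly past this start in both cultures, at chr5:13398464-13402320 in NSC (fold 7.04) and chr5:13399341-13402437 in BTSC (fold 6.04).

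The neuropilin genes carried TLX at their starts. At Nrp1, a co-receptor for Sema3a and for vascular endothelial growth factor, the peak of NSC was 3013 bp wide with its summit 503 bp past the start, a fold of 6.31 and a −log10 q of 14.2. No TLX peak of BTSC lay there, although an H3K27ac peak covered the start in both cultures, 3766 bp wide in NSC and 3166 bp in BTSC. At Nrp2, a co-receptor for Sema3f, the summit lay 240 bp past the start in NSC (fold 4.21) and 83 bp before it in BTSC (fold 4.12), within H3K27ac peaks of 841 and 899 bp. These are the peaks over the Nrp2 sequence printed above. At Sema4c, a ligand of Plxnb2, the summits were 409 bp past the start in NSC (fold 4.97) and 393 bp in BTSC (fold 5.04). They lay inside start-site H3K27ac peaks of 3321 bp with a fold of 34.4 in NSC and 4106 bp with a fold of 40.0 in BTSC.

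Among Eph genes, Efna5 was the ephrin with TLX. Efna5 encodes ephrin-A5, the lipid-anchored ligand known from the mapping of retinal axons. Its 2 peaks lay 18554 and 221462 bp past the start with folds of 6.65 (−log10 q of 16.3) and 3.82, both outside H3K27ac of either culture. Epha3, a receptor of ephrin-A5, was singled out after its values were seen: its TLX peak (fold 4.97) lay 38 bp past the start, reaching into the GC-box-free sequence above, and no H3K27ac peak of either culture lay at the gene. These 3 peaks, with those named in Plxna2 and Plxna4, are the 5 of 47 outside H3K27ac of NSC. Epha4, a receptor that binds ephrins of both classes, had a TLX peak of NSC 18046 bp past the start with a fold of 6.17 and a −log10 q of 13.9. Among the 10 genes with the highest −log10 q there were also Sema4d and Sema5b, each with a fold of 5.93 and a −log10 q of 12.6, and Plxnb3, a receptor of Sema5a, with a fold of 5.55 and a −log10 q of 11.0. The peak counted for Epha1 had its summit in the neighbouring gene Zyx.

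H3K27ac lay within 1000 bp of a gene end at 35 of the 53 guidance genes in NSC (66.0%, interval 51.7 to 78.5%), against 52.2% of all protein-coding genes. In BTSC it did so at 31 (58.5%, interval 44.1 to 71.9%), against 51.7% of all genes. It was called in both cultures at 30 (49.6% of all genes) and in neither at 17 (45.7% of all genes). It was called in NSC alone at 5 (9.43%, interval 3.13 to 20.7%), against 2.62% of all genes, and in BTSC alone at 1 (1.89%), against 2.09% of all genes. The 5 genes were Efna5, Epha7, Sema3b, Sema3c and Sema3d, and the 1 gene was Sema5a. Of the 5, all but Sema3b are longer than 100 kb, and 5.19% of all genes of that length were in this class. With peaks of a −log10 q of at least 5, the NSC class held 3 guidance genes (Efna5, Sema3b and Sema3c), against 2.71% of all genes. The BTSC class then also held 3 (Sema4a, Sema4g and Sema5a), against 2.05% of all genes, so the 2 counts were equal. All these counts use the ends of the annotated body. Ephb6 and Sema4b, counted in neither culture, have a listed RefSeq start inside the body. The promoter window of Ephb6 lay under an H3K27ac peak of NSC and none of BTSC. That of the Sema4b start at position 80198588 of chromosome 7 lay under H3K27ac of both.

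Plexins and class 6 semaphorins kept acetylated ends in both cultures, 8 of 9 and 4 of 4 genes, Plxnd1 being the exception. Of all genes 49.6% had H3K27ac at an end in both cultures. So did both neuropilins, Sema7a, 4 of 5 EphB and 5 of 8 ephrin genes, and 2 of 9 EphA genes (Epha4 and Epha5). Of the 7 class 3 semaphorin genes, the secreted ligands, 3 had H3K27ac at an end in NSC and 0 in BTSC, against 52.2% and 51.7% of all genes. Sema3a is not among the 3, since its listed start lies inside the annotated body, with H3K27ac shortly past it in both cultures. At Sema3c the NSC peak was 1288 bp wide with a fold of 3.99 and covered the printed start, and at Sema3d it was 751 bp wide with a fold of 2.64. Sema3b, a ligand of the neuropilins, was a borderline case. An NSC peak of 6298 bp and a fold of 18.2 outside the gene reached within 1000 bp of its end, while the overlapping BTSC peak, 4844 bp with a fold of 19.7, did not, and 7 other genes lie in the windows around its ends. The start of Efna5 had a peak of 3401 bp (fold 4.45) in NSC, and that of Epha7, a receptor of ephrin-A5, had one of 3213 bp (fold 3.08), which also held a TLX peak of NSC. Within 10000 bp of either gene the BTSC list had no H3K27ac peak. The start of Sema5a went the other way, with a peak of 1788 bp (fold 3.69) in BTSC and none in NSC.

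The length covered by H3K27ac within 25000 bp of the gene ends had, over the 53 genes, a median of 4392 bp for NSC and 3636 bp for BTSC, against 2441 and 2569 bp over all genes. It was greater in BTSC at 21 and smaller at 27, whereas over all genes it was greater at 43.0% and smaller at 30.4%. A gene is called wider in a culture here when the covered length was at least 1.5 times, and at least 1000 bp more than, that of the other. By this measure 11 guidance genes (20.8%, interval 10.8 to 34.1%) were wider in NSC, against 7.22% of all genes. They were Efna5, Epha1, Epha2, Epha7, Ephb1, Plxna1, Plxnd1, Sema3c, Sema3d, Sema5b and Sema6c. In BTSC 10 (18.9%, interval 9.44 to 32.0%) were wider, against 13.1% of all genes, namely Efnb3, Epha4, Plxna2, Sema4a, Sema4b, Sema4c, Sema4d, Sema4g, Sema5a and Sema6b. Only a gene with at least 1000 bp covered in either culture can be called wider. These were 47 of the 53 guidance genes, but 15188 of all 21887 genes, and the part of this in the shares was not tested. Counted over the gene body and 10000 bp around it, 15 were wider in NSC (6.87% of all genes) and 11 in BTSC (12.2% of all genes). Guidance genes over 100 kb were wider near their ends in NSC at 6 of 22 (27.3%), against 12.3% of all genes of that length. In BTSC 4 of these 22 were wider (18.2% against 16.8%). Under 20 kb, 2 of 17 were wider in NSC (11.8% against 5.54%) and 4 in BTSC (23.5% against 10.1%). From 20 to 100 kb, 3 of 14 were wider in NSC (21.4% against 8.21%) and 2 in BTSC (14.3% against 16.6%).

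**Figure D3:**
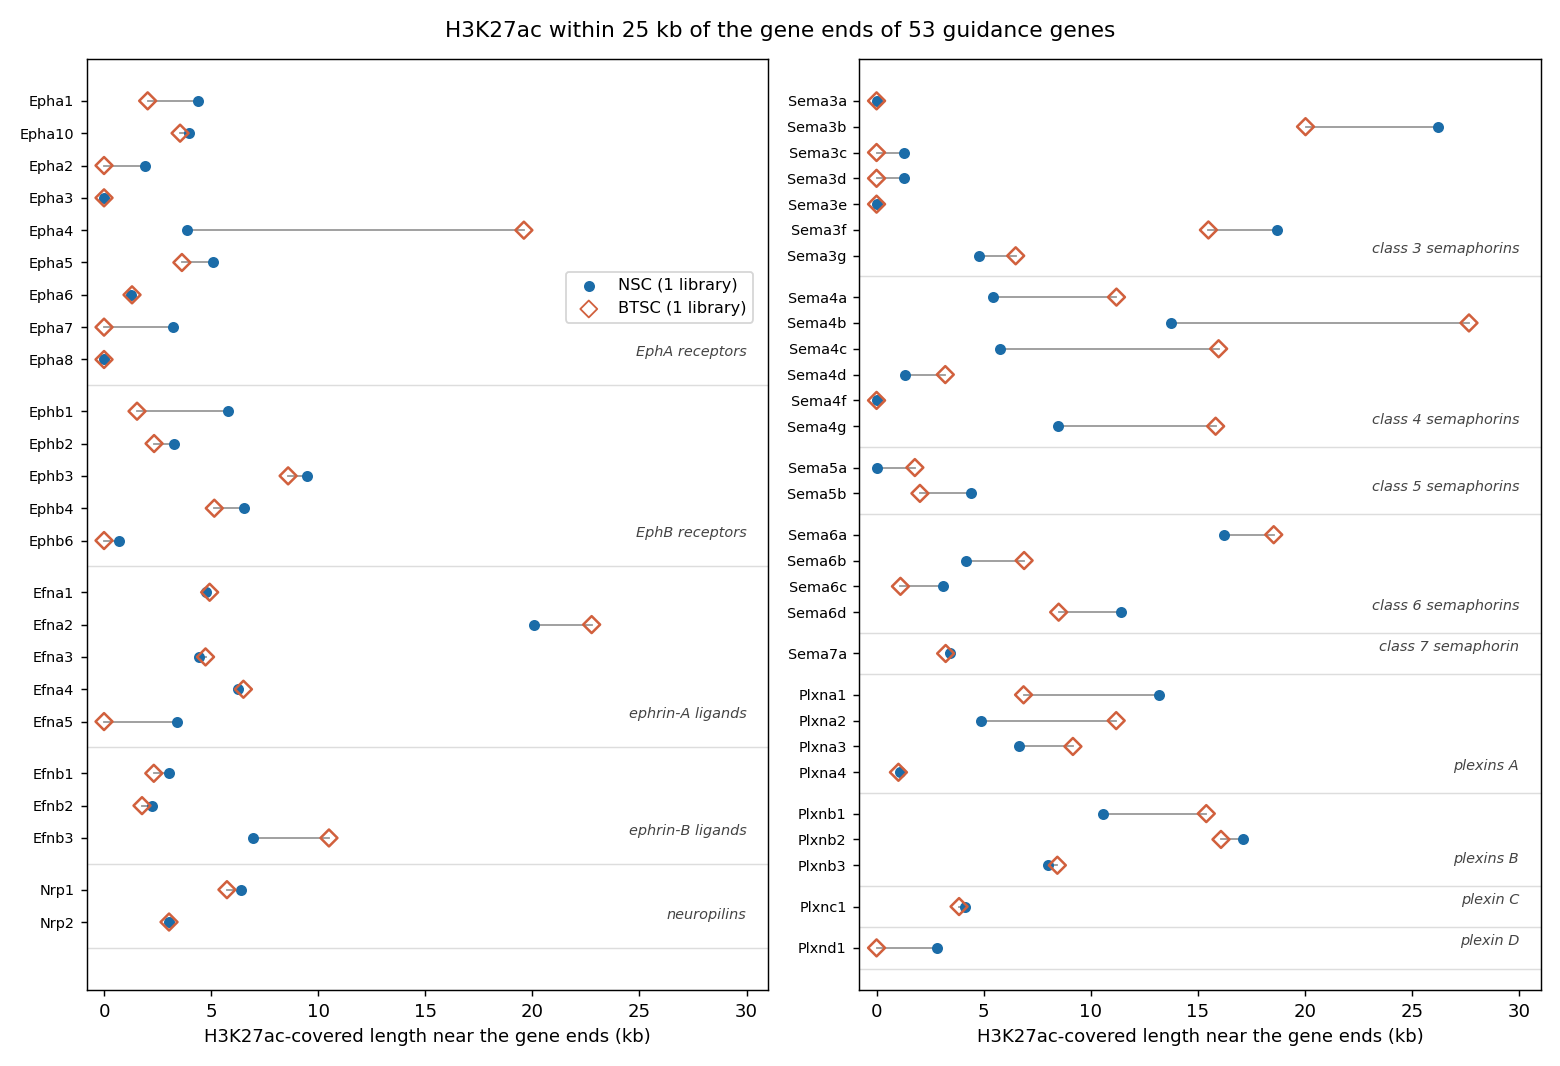
H3K27ac-covered length within 25 kb of the gene ends (horizontal axis, kb) of each of the 53 guidance genes (vertical axis, by family) in NSC (filled circles) and BTSC (open diamonds), 1 library each; lines join the values of a gene. Epha4 goes from 3895 bp in NSC to 19603 bp in BTSC, 5 of the 6 class 4 semaphorins lie further right in BTSC, and Efna5, Epha7, Sema3c and Sema3d are at 0 in BTSC.

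The class 4 semaphorins, membrane-bound ligands of B-type plexins and of immune receptors, were wider in BTSC at 5 of 6 genes and wider in NSC at 0. This held near the gene ends as well as over the gene bodies with 10000 bp around them. Of all genes, 13.1% were wider in BTSC near the ends and 12.2% over the bodies, and in NSC 7.22% and 6.87%. Counts by family were not among the planned results. The covered length near the ends was 13729 bp in NSC and 27661 bp in BTSC at Sema4b, 5757 and 15971 bp at Sema4c, and 8491 and 15831 bp at Sema4g. At Sema4a it was 5415 and 11201 bp, at Sema4d 1340 and 3209 bp, and Sema4f had no H3K27ac peak in either list. Over the body and 10000 bp around it, the lengths in NSC and BTSC were 12054 and 25248 bp at Sema4b and 2712 and 5222 bp at Sema4d. There the differences were smaller than near the ends at Sema4c (4448 and 7133 bp), Sema4g (2650 and 4670 bp) and Sema4a (1422 and 2972 bp). The windows near the ends of these 5 genes reach 1 (Sema4d) to 5 (Sema4g) other genes, and Sema4c lies on chromosome 1. At Sema4b a single BTSC peak of 14279 bp, with a fold of 13.4, spanned the place of 2 NSC peaks of 6727 and 2464 bp, with folds of 7.47 and 23.1. Relative to the ratio of its own chromosome all 5 were still wider in BTSC. At a −log10 q of at least 5, 4 were, and Sema4d, the ligand of Plxnb1, turned to a BTSC minus NSC difference of −1340 bp.

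Of the 3 B-type plexin genes, 0 were called wider in either culture near the gene ends, and over the gene body Plxnb1 was wider in BTSC, with 7396 bp in NSC and 12203 bp in BTSC. Plxnb2 had 17116 bp in NSC and 16081 bp in BTSC, and Plxnb3 had 7999 and 8441 bp. Near its ends Plxnb1 had 10588 bp in NSC and 15395 bp in BTSC, below 1.5 times, with a start-site H3K27ac peak of 6099 bp and a fold of 33.6 in NSC and of 9147 bp and a fold of 42.9 in BTSC. Among the other plexins, Plxna2 had 4893 and 11189 bp, which was no longer called wider relative to chromosome 1. Plxna1, a plexin of chromosome 6 that pairs with neuropilins, had 13191 bp in NSC and 6864 bp in BTSC, with 6 and 4 peaks. Plxnd1, the receptor of Sema3e, had 2833 bp in NSC, as 1 peak of a fold of 2.70, and 0 in BTSC; it too lies on chromosome 6.

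Epha4 had the greatest difference of the 53 genes. Covered length near its ends was 3895 bp in NSC and 19603 bp in BTSC, and over the body and 10000 bp around it 4847 and 54623 bp. NSC had 3 peaks, of 952 to 2833 bp and folds of 3.04 to 5.80, and BTSC had 16, up to 9069 bp wide and with folds up to 13.8. Each of the 3 NSC peaks lay under a wider BTSC peak, and 13 BTSC peaks had no NSC counterpart. The TLX peak of NSC lay under 1 of the 3, 1062 bp wide in NSC and 5539 bp in BTSC, yet no TLX peak was called there in BTSC. No other protein-coding gene reaches the windows of Epha4. The gene lies on chromosome 1, where covered sequence in BTSC was 1.66 times that in NSC, and Epha4 was 5.03 times near its ends.

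Sema5b and Sema6d went the other way over their bodies with 10000 bp around them. Sema5b, a membrane-bound semaphorin with thrombospondin repeats, had 25461 bp in 11 peaks in NSC and 7190 bp in 8 peaks in BTSC. Each of the 8 BTSC peaks overlapped an NSC peak. Its start-site peak had a fold of 19.9 in NSC and 5.66 in BTSC. The TLX peak of NSC, 72786 bp past the start, lay in an NSC H3K27ac peak of 5001 bp, where the BTSC peak was 891 bp wide. Sema6d had 60167 bp in 26 peaks in NSC and 39795 bp in 18 peaks in BTSC over its body, and 11404 and 8503 bp near its ends. The 2 class 5 genes thus differed: Sema5b was narrower in BTSC, while Sema5a gained a start-site peak and had 13490 and 13669 bp over its body.

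**Figure D4:**
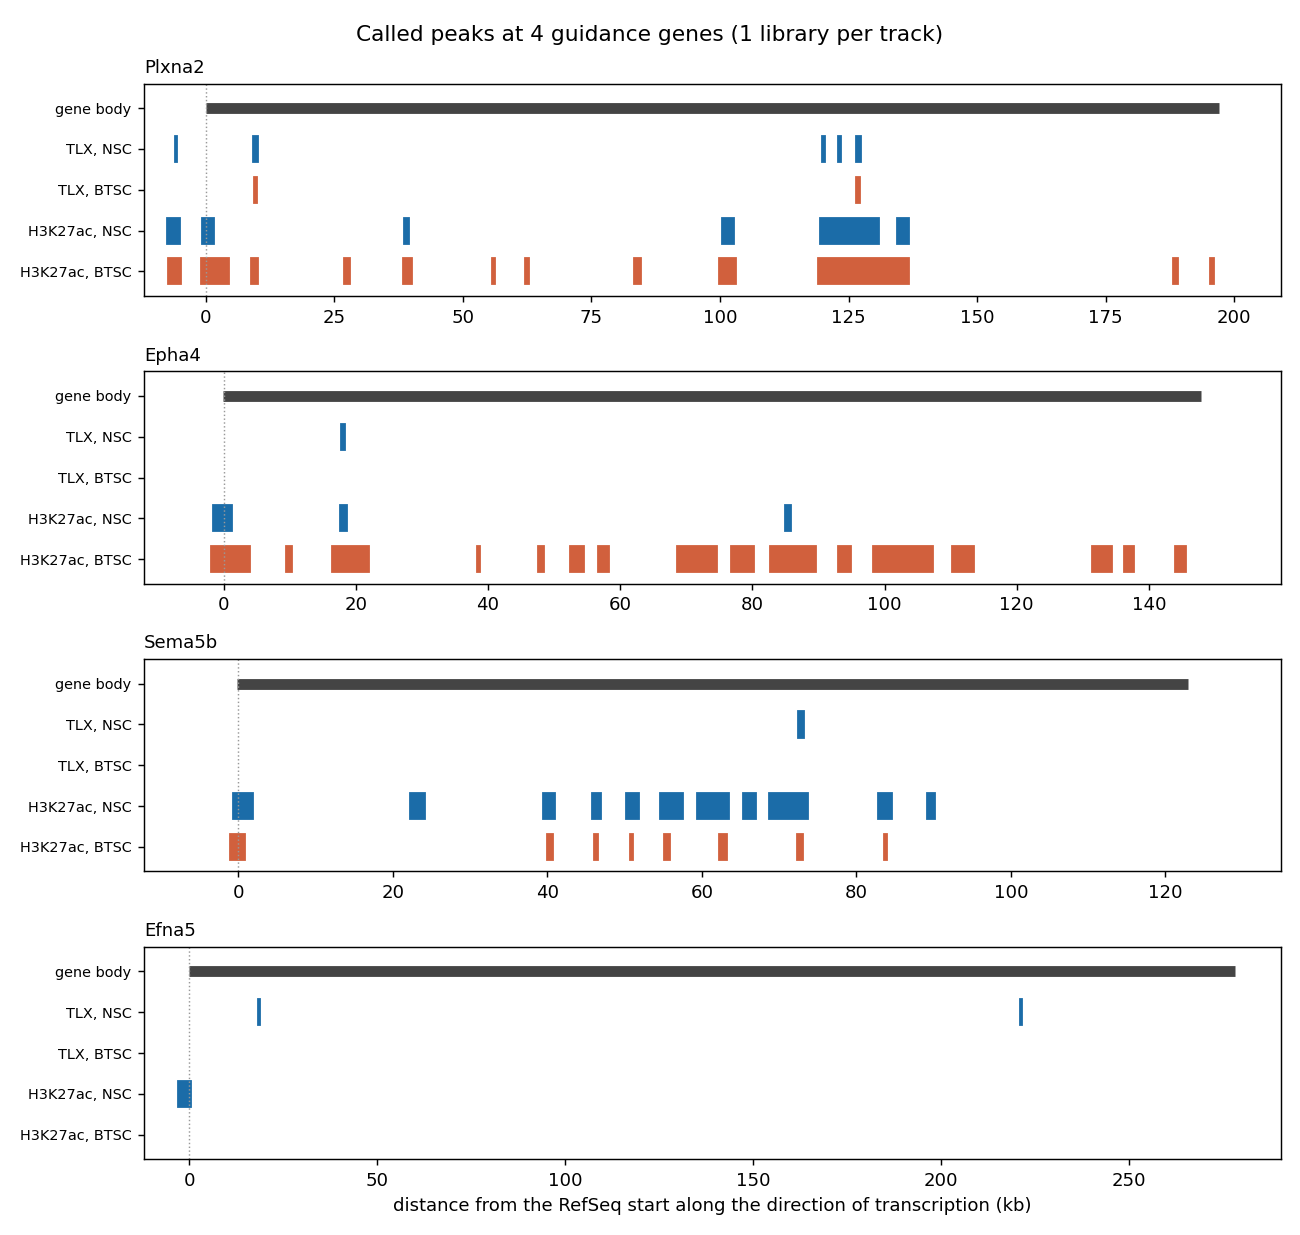
Called peaks of the 4 libraries (rows) along Plxna2, Epha4, Sema5b and Efna5, by distance from the RefSeq start in the direction of transcription (horizontal axis, kb); bars span each called peak and the grey bar is the gene body. Epha4 has 3 H3K27ac peaks in NSC and 16 in BTSC, Sema5b 11 and 8, and Efna5 1 and 0, and the TLX peak 9580 bp past the start of Plxna2 has H3K27ac in BTSC alone.

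Among the other genes with the largest differences, Efnb3, an ephrin-B with a known role at the midline, had 6973 bp in NSC and 10502 bp in BTSC near its ends. Efna2 had 20058 and 22767 bp, and Sema6b had 4197 and 6889 bp, but over the body Sema6b was lower in BTSC (2841 and 2037 bp). Ephb1, a receptor of the B-type ephrins, also depended on the window: 5769 and 1541 bp near its ends, but 3570 and 6640 bp over the body and 10000 bp around it. Sema3f, a ligand of Nrp2, had 18715 and 15495 bp, Sema3b had 26215 and 20029 bp, and Epha1 had 4392 and 2037 bp. Efnb3, Efna2, Sema3b, Sema3f and Sema6b have 2 to 7 other genes in their windows, so their covered length includes peaks of neighbours. Efna1, Efna3 and Efna4 lie next to each other on chromosome 3, with gaps of 32947 and 10453 bp, and share part of their windows; their covered lengths differed between the cultures by 191 to 298 bp.

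Over the 53 genes the H3K27ac lists named 172 peaks in NSC and 163 in BTSC. Of the NSC peaks 126 (73.3%, interval 66.0 to 79.7%) overlapped a BTSC peak, against 79.0% of all NSC peaks. Of the BTSC peaks 124 (76.1%, interval 68.8 to 82.4%) overlapped an NSC peak, against 76.8% of all. A TLX peak of the same culture lay in 36 of the 172 (20.9%), near the 20.2% of all NSC peaks, and in 5 of the 163 (3.07%), near the 4.05% of all BTSC peaks. Epha8, Sema3e and Sema4f had no TLX and no H3K27ac peak in any list.

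The related genes of the same pathways were counted as lists, and no difference between lists was tested. Of 41 effectors and co-receptors, 24 had TLX in NSC (58.5%, against 24.8% of all genes) and 8 in BTSC (19.5%, against 5.12%), 7 of them in both: Dpysl3, Dpysl5, Itsn1, Kalrn, Rac1, Sipa1l1 and Vav2. Of the 24 effector genes over 100 kb, 17 had TLX in NSC (70.8%, against 51.4% of all genes of that length) and 6 in BTSC (25%, against 13.8%). H3K27ac lay at an end of 32 in NSC (78.0%, against 52.2% of all genes) and 30 in BTSC (73.2%, against 51.7%). Near the gene ends 10 were wider in BTSC (24.4%, against 13.1% of all genes) and 1, the GTPase gene Rnd1, in NSC (2.44%, against 7.22%). Of all genes over 100 kb, as 24 of these 41 are, 16.8% were wider in BTSC and 12.3% in NSC. The need for at least 1000 bp covered applies here too, and its part in these shares was not tested. Rac1, the GTPase behind much of cytoskeletal remodelling, had 5798 bp in NSC and 16412 bp in BTSC, and Abl2, a kinase gene on chromosome 1, had 2662 and 14101 bp. Of 13 genes of the netrin system, another family of guidance cues, 9 had TLX in NSC (69.2%, against 24.8% of all genes) and 2 (Ntn1 and Unc5d) in BTSC (15.4%, against 5.12%). Of the 7 netrin-system genes over 100 kb, 6 had TLX in NSC, where 51.4% of all genes of that length did. H3K27ac lay at an end of 10 in NSC (76.9%, against 52.2% of all genes) and 8 in BTSC (61.5%, against 51.7%), the difference being Dcc, the netrin receptor gene, and Ntng1. By covered length 4 of 13 were wider in NSC (Dcc, Ntn4, Ntng1 and Unc5b; 7.22% of all genes) and 2 in BTSC (Draxin and Neo1; 13.1% of all genes). Dcc, Ntn4, Ntng1 and Neo1 are longer than 100 kb. Of all genes of that length 12.3% were wider in NSC and 16.8% in BTSC.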

How the data were processed

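The authors deposited 4 peak lists from chromatin immunoprecipitation with sequencing, 1 per library: narrow peaks for TLX, broad peaks for H3K27ac. Tools named in the submitters' processing notes are Bowtie, ChIPseeker and bcl2fastq 2.17.1.14, with build mm10; which program called peaks, and how, is not given in the sources used here. Each deposited peak has a score, a fold enrichment (a linear ratio), and p and q on the −log10 scale (−log10 p-value and −log10 q-value), all computed by the authors; their use here was confined to ranking, filtering or describing peaks of 1 list, and some shared peaks have the values of both lists side by side. Sequencing depth is unknown, so no difference in these per-peak values between libraries was computed. Peak calls, peak widths and covered lengths were compared between the cultures, and these can depend on depth as well.

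Genes and promoter windows came from RefSeq (GRCm38.p6, the assembly of mm10). The gene table has no exons, so positions are given as body, flank or distance to a start; strand and start sites were taken from the promoter table. Windows were given for 47 of 53 guidance genes and not for Efnb3, Plxna1, Plxna4, Sema3b, Sema3f and Sema6a, for which distances are from gene ends. Overlap meant at least 1 bp. Gene ends are both ends of the annotated body. Counts and covered lengths were computed in Python 3.11.15 with pandas 2.3.3, exact Clopper-Pearson 95% intervals with SciPy 1.17.1, after the code had been tested on simulated data. With 1 library per group no test was possible and no p-value is given.

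The symbol rule that gives the guidance genes uses no measured value, but it and the gene lists were chosen with earlier results of these data known. Genes named with values are those with TLX in both lists or in BTSC alone, the 10 of highest TLX −log10 q in NSC, those with H3K27ac at an end in 1 list, the 10 per direction with the largest difference in covered length, the 3 with most TLX peaks (3 genes tied for the last place) and those over 300 kb without TLX; others are named for family counts. Alternatives were a −log10 q of at least 5, equal numbers of peaks, other TLX and gene-end windows, the gene nearest the summit, covered length over bodies or relative to the chromosome, joined peaks, a fold of 2, an overlap of 50%, and leaving out chromosomes 1 and 6. One further list of cell type markers is not reported here.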

Additional observations from a re-analysis of the deposited data

How the results depend on the processing

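Of 68 recomputed counts and shares, 60 stayed within 1.5 times of the reported count or within the interval of the reported share, and 8 did not. Cutting the TLX lists to equal numbers of peaks left 4 guidance genes with TLX in NSC (4.86% of all genes) and 1 in both (2.44% of all genes). It left 3 in BTSC alone (Nrp2, Sema3a and Sema4c), where 5.12% of all genes had TLX in BTSC and 2.44% in both. It put 40.0% of the TLX peaks of NSC at guidance genes, 2 of 5, inside H3K27ac. The share over all TLX peaks of the cut list was not computed. Without chromosomes 1 and 6, 1 gene (Sema3a) had TLX in BTSC and in both, and the share over all genes was not computed. At a −log10 q of at least 5, H3K27ac at a gene end was called in NSC alone at 3 genes (2.71% of all genes) and in BTSC alone at 3 (2.05% of all genes). Of 141 recomputed differences in covered length of single genes, 126 kept direction and call, 12 lost the call and 3 changed sign (BTSC minus NSC): Sema4d at −1340 bp with the stricter q, and Ephb1 at 3070 bp and Sema6b at −804 bp over the body and 10000 bp around it. With the stricter q, Epha2, Epha7, Plxnd1 and Sema3d had no H3K27ac left near their ends. Class 4 semaphorins wider in BTSC numbered 4 or 5 under each alternative, class 3 semaphorins wider in NSC 1 to 4, and EphA receptors wider in NSC 1 to 4. These family counts were not among the planned results. The cause of these changes was not tested. No paired analysis was possible because each group has 1 library and no test was made. Unknown read depth and the single library per group limit what a missing peak or a difference in covered length shows.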
